A study of Mus musculus with 12 samples.

Results

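RNA-Seq of Pias3-/- mouse retina was compared between 18 months and postnatal day 21 (P21), to ask which transcripts differ between old and young retina in mice that lack Pias3. The comparison took the 3 libraries labelled 18 months and PIAS3 KO and the 3 labelled P21 and PIAS3 KO, 6 of the 12 libraries of the study. Of 24062 counted genes, 12287 had an FPKM, a count scaled by gene length and library size, of at least 2 in at least 1 of the 6 libraries and were tested. Each library held RNA of 2 retinas, and mice of either sex were used. The Pias3-/- line lacked Pias3 exons 2 to 5 in all tissues. It arose when a floxed allele was recombined in the oocyte by leaky Rx-Cre, after a neo cassette had been removed with Actin-Flp, and strain C57Bl6/J is given for all libraries. Pias3+/+ retina of the same ages, 3 libraries per age and labelled wild type, was used for the same age comparison, given beside that of Pias3-/- retina, and for the test of where the age difference differed between genotypes. The ages were sampled from different mice, so age cannot be told apart from the cohort or the time of collection.

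Pias3 is an E3 ligase that attaches the small protein SUMO to other proteins, among them transcription factors of photoreceptors. Rods are the most abundant cells of the mouse retina: light acts through the G protein transducin on a phosphodiesterase that lowers cyclic GMP and closes cation channels of the outer segment. At P21 the retinal neurons have been born and the outer segments have formed, whereas the retina of an old mouse is known for glial and immune gene expression. Interferons switch on a shared set of genes, and cells present peptides to lymphocytes on class I molecules, which need B2m.

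Promoters of 6 genes that were higher at 18 months are shown because 2 gene groups, interferon and antigen presentation genes on the one hand and rod and outer segment genes on the other, are described below and are known for different sequence motifs near their starts. Each is a window of 300 bases, from 250 before to 50 after the annotated start, from RefSeq on GRCm38.p6, written 5′ to 3′ on the strand of the gene. The capitals mark the interferon-stimulated response element, searched as GAAA, any 2 bases and GAAA again, on either strand, in Gbp2 (chr3:142620413-142620712, plus strand), Ifit1 (chr19:34640639-34640938, plus strand) and B2m (chr2:122147437-122147736, plus strand).
Gbp2: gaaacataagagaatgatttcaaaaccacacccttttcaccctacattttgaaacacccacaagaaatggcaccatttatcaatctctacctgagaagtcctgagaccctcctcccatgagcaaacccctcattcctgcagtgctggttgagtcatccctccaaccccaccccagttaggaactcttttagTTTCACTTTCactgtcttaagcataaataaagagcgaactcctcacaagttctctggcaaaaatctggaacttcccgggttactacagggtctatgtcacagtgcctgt
Ifit1: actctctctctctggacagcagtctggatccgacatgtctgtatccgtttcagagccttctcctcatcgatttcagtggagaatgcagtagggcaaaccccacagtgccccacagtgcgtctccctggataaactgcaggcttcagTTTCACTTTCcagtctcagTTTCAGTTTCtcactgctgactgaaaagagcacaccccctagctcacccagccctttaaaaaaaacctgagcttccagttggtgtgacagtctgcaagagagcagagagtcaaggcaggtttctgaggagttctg
B2m: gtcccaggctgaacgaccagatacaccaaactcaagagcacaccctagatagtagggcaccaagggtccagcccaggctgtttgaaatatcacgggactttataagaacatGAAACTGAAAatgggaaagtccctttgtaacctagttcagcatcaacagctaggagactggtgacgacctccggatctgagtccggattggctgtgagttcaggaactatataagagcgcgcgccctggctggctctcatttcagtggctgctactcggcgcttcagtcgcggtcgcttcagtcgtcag
For rod and outer segment genes the capitals mark the core TAATCC, on either strand, to which the photoreceptor factor Crx is known to bind, in Cngb1 (chr8:95306536-95306835, minus strand), Gucy2f (chrX:142196887-142197186, minus strand) and Abca4 (chr3:122044210-122044509, plus strand).
Cngb1: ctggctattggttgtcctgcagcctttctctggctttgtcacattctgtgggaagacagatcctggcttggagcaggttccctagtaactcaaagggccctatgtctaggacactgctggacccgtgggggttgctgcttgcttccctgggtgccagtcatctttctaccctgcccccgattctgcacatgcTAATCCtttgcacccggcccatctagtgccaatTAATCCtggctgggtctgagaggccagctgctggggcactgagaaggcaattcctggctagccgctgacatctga
Gucy2f: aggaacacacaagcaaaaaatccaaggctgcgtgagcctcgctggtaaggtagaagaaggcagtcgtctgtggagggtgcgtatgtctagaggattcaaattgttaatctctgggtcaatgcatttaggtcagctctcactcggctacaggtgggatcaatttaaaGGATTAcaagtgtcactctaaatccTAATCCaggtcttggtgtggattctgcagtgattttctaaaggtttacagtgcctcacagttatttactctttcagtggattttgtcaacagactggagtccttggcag
Abca4: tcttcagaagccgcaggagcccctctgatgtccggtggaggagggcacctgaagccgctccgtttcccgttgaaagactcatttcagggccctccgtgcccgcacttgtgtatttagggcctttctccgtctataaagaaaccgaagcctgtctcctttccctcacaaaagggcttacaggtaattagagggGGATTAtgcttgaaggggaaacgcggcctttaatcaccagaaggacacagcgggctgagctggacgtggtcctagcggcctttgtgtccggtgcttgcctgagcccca
A promoter was matched for 9134 of the 12287 genes tested. The response element was in 244 of these (2.67%), in 11 of 18 matched promoters of the interferon list (61.1%), in 2 of the 5 of that list that rose, in 2 of 9 of the antigen presentation list and in none of 13 of the rod list. The Crx core was in 527 of the 9134 (5.77%), in 7 of 13 matched promoters of the rod phototransduction list (53.8%), in 2 of 15 of the outer segment list (13.3%) and also in 4 of 18 of the interferon list (22.2%). Among matched genes that rose, the response element was in 1 of 4 of the antigen presentation list. The Crx core was in 4 of 6 of the rod list and in 1 of 5 of the outer segment list. All 6 promoters shown hold a match, so they are examples and do not stand for the genes that rose. These matches describe letters in the window and not binding.

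Total counts were between 15196453 and 21967072 per Pias3-/- library, so that 3 counts stood for 0.137 to 0.197 CPM (counts scaled to library size; counting error only). Pias3 itself was counted over the whole gene, of which the line lacks only a part. It had 1320, 1188 and 1998 counts in the P21 and 946, 1085 and 1287 in the 18-month Pias3-/- libraries, and on the scale of all 12 libraries it was at 52.8 to 87.1 CPM in Pias3-/- and 97.6 to 141 CPM in Pias3+/+ retina. Libraries stood apart in several respects. P21 Pias3-/- replicate 3 was the only one of the 6 with Xist (15790 counts) and without Y-linked transcripts (1 count over 4 genes). 18-month replicate 2 carried lens RNA: the 25 listed lens genes summed to 10321 CPM there, against 57.6 and 123 CPM in the other 18-month libraries and 74.7 to 182 CPM at P21, and 12 ciliary body and iris genes summed to 97.8 CPM there and to 11.7 to 25.4 CPM elsewhere. P21 replicate 2 had the most pigment epithelium RNA, with Rpe65 at 56.8 CPM against 4.71 and 10.2 CPM. Deviations of a library from its group also followed gene length, with a Spearman correlation across genes of -0.50 in P21 replicate 3 and -0.36 in 18-month replicate 3, and of 0.14 to 0.45 in the other libraries. Counts below are given for all 6 libraries and, where the count differs, without 18-month replicate 2. In bulk RNA, fewer cells of a type and less RNA per cell cannot be told apart.

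Between P21 and 18 months, 995 genes (8.10% of those tested) changed in Pias3-/- retina: 564 were higher at 18 months (4.59%) and 431 lower (3.51%). A change meant an FDR of at most 0.05, the Benjamini-Hochberg adjusted p of edgeR's quasi-likelihood test, and a fold change of at least 1.5. Most changes were small: 346 genes were higher and 297 lower by under 2-fold, 167 and 105 by 2-fold to under 4-fold, and 51 and 29 by 4-fold or more. The libraries of both ages did not overlap in any of the 995, against 37.0% of all genes tested, and 14.4% passed the FDR without regard to fold change. Before adjustment 30.4% of all genes tested had a p at or under 0.05. Without 18-month replicate 2, 685 of 12171 genes tested changed (5.63%, with 3.18% higher and 2.45% lower), and 625 of the 995 were called again in the same direction. The count rested more on other libraries, being 421 without P21 replicate 1 and 498 without 18-month replicate 1. With scaling by library size only, the median log2 fold change of all genes moved from 0.01 to -0.11 and the share of called genes that were higher from 56.7% to 34.0%.

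The largest increases included an enzyme of histamine synthesis, a collagen chain and a signalling peptide. Hdc, the enzyme that makes histamine, was at 1.39, 2.52 and 1.54 CPM in the P21 libraries and at 47.6, 46.4 and 67.3 CPM at 18 months, a log2 fold change of 4.91 ± 0.26 (SE, edgeR FDR 0.0004). Col4a3, a chain of basement membrane collagen, was at 5.71, 8.85 and 4.88 CPM and at 66.9, 133 and 101 CPM (3.96 ± 0.33, edgeR FDR 0.00117). Edn2, the signalling peptide endothelin 2, was at 0.444, 0.452 and 0.484 CPM and at 8.41, 2.35 and 5.47 CPM (3.53 ± 0.51, edgeR FDR 0.00749). The 18-month libraries lay above the P21 libraries in each of these genes, and they spread more widely for Edn2 than for Hdc. The uncharacterized 2410124H12Rik had 1, 2 and 2 counts at P21 and 120, 179 and 163 at 18 months, a pooled ratio of 90.9 with a 95% counting interval of 38.7 to 281. Among the 10 largest increases were also Tigd4 (log2 fold change 4.32, and 5.31 without P21 replicate 1), Tcea3, a transcription elongation factor (3.81), Rimbp3 (3.45), Bst1, an ectoenzyme that cleaves NAD (3.26), Csrp3, a LIM protein of muscle (3.23), and Lyz2, the lysozyme of macrophages. Lyz2 was at 0.879 to 1.29 CPM at P21 and at 3.44, 21.5 and 5.28 CPM at 18 months, and its log2 fold change of 3.17 was 1.96 without the library that carried lens RNA.

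The genes with the lowest p-values among increases had little spread within an age. Fndc1, which encodes a protein with fibronectin type III domains, was at 11.3, 11.0 and 10.6 CPM at P21 and at 85.4, 69.7 and 85.0 CPM at 18 months (log2 fold change 2.87 ± 0.11, edgeR FDR 0.000217). Ahrr, the repressor of the aryl hydrocarbon receptor, was at 20.5, 23.3 and 21.3 CPM and at 88.3, 82.5 and 91.1 CPM (2.01 ± 0.09, edgeR FDR 0.000217). Gm11961 and Glb1l3, a relative of beta-galactosidase, had log2 fold changes of 2.69 and 2.71 with the same FDR. All 4 were called in Pias3+/+ retina in the same direction, at log2 fold changes of 1.85, 1.97, 2.83 and 3.43.

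Among decreases, gamma crystallins, an immediate early gene and an insulin-like growth factor binding protein stood out. Egr1, a transcription factor induced by neuronal activity, was at 78.0, 112.5 and 94.9 CPM at P21 and at 14.2, 11.7 and 11.2 CPM at 18 months (log2 fold change -2.95 ± 0.17, edgeR FDR 0.000434). Igfbp3, which binds insulin-like growth factors, was at 19.6, 25.6 and 25.4 CPM and at 2.03, 2.90 and 2.40 CPM (-3.26 ± 0.19, edgeR FDR 0.000434). Apobec2, a member of the cytidine deaminase family, was at 22.95, 16.7 and 22.6 CPM and at 1.41, 0.799 and 0.816 CPM (-4.38 ± 0.26, edgeR FDR 0.000469). The groups were well apart in these 3 genes, and each also fell in Pias3+/+ retina. Tmem26 fell by 3.85 and D430019H16Rik by 1.63 on the log2 scale. Selenbp1 and Selenbp2, near-identical selenium binding protein genes between which reads may be split, both fell by 2.59. Both lie on chromosome 3, as Pias3 does, and also fell in Pias3+/+ retina, by 2.16 and 2.17.

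**Figure D1:**
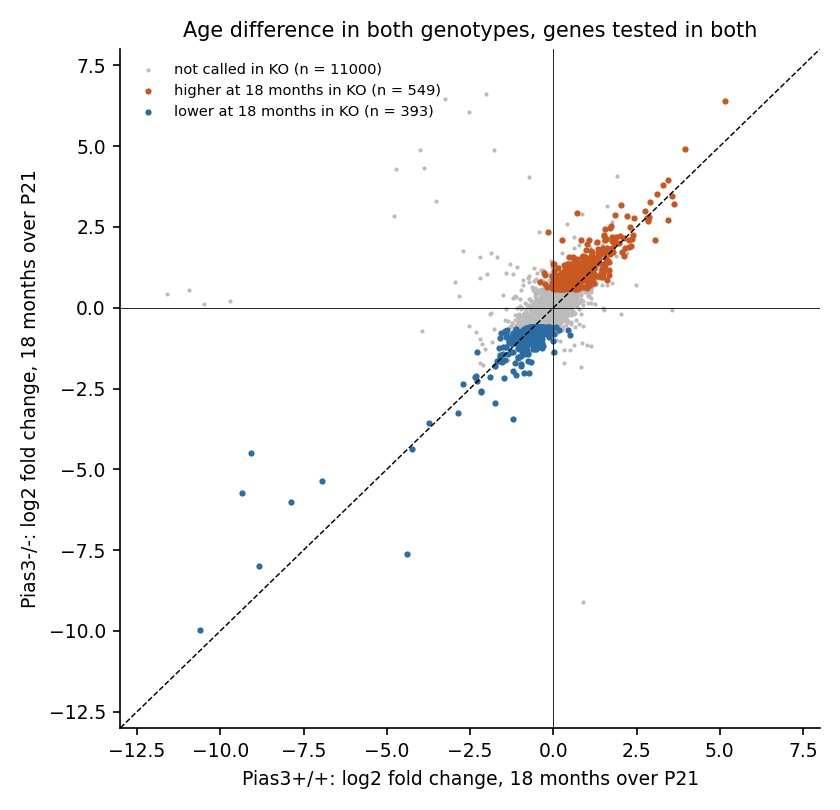
Log2 fold change from P21 to 18 months in Pias3-/- retina (vertical axis) against that in Pias3+/+ retina (horizontal axis), 1 point per gene tested in both, coloured where called in Pias3-/- retina, with equality dashed. Of the 942 coloured genes 923 lie on the same side of 0 in both genotypes, and the grey points high on the left include lens genes of the 1 library with lens RNA.

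The age difference was largely shared with Pias3+/+ retina, with which this comparison has no library in common. Of the 995 genes, 942 were tested in Pias3+/+ retina, and 923 of them (98.0%) differed in the same direction there, whereas 19 differed in the opposite direction. Over all 11942 genes tested in both, 78.1% had the same direction. In Pias3+/+ retina 967 of 12109 genes changed (7.99%), 448 higher (3.70%) and 519 lower (4.29%), and 30.3% passed the FDR alone. Called in both in the same direction were 491 genes, 52.1% of those called in Pias3-/- and 53.7% of those called in Pias3+/+ retina, and no gene was called in opposite directions. The median size of the log2 fold change of the 942 genes was 0.82 in Pias3-/- and 0.61 in Pias3+/+ retina, and the genes were chosen on the former. Replicates varied more in Pias3-/- retina, with a biological coefficient of variation of 17.2% (15.4% without 18-month replicate 2) against 8.68%, so the same fold change was called less readily there. The plot of both age differences shows the called genes mostly on the same side of 0 in both genotypes.

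Rod phototransduction genes were higher at 18 months in Pias3-/- retina. Of 20 genes on the list, 9 rose and none fell, with a median log2 fold change of 0.57 against 0.01 over all genes tested, where 4.59% rose. Gnat1, the alpha subunit of rod transducin, was at 9182, 8702 and 8997 CPM at P21 and at 16926, 16996 and 18726 CPM at 18 months, a log2 fold change of 0.97 ± 0.07 (SE, edgeR FDR 0.000944). Every 18-month library lay above every P21 library. Among enzymes that make or degrade cyclic GMP, Gucy2f, a guanylate cyclase whose promoter is shown above, was at 144, 180 and 81.9 CPM and at 383, 457 and 362 CPM (1.57 ± 0.27, edgeR FDR 0.0128). Gucy2e, the other cyclase, rose by 0.89, the cyclase activator Guca1a by 0.67 and the phosphodiesterase subunit Pde6a by 0.78 on the log2 scale. Cngb1, a subunit of the rod cation channel, was at 548, 524 and 554 CPM and at 1029, 1058 and 1300 CPM (1.06 ± 0.11, edgeR FDR 0.00258). The exchanger gene Slc24a1 and Grk1, a kinase that ends the light response, rose by 0.75 and 0.89. Pdc, which encodes phosducin, a protein that binds transducin subunits, was the only member with a negative log2 fold change (-0.39, edgeR FDR 0.0514).

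The rod list summed to between 59582 and 65421 CPM in the P21 libraries and between 90418 and 103155 CPM at 18 months, so the libraries of both ages did not overlap. Its count was 6 without 18-month replicate 2 and also without 18-month replicate 1, 2 without P21 replicate 1 and 7 with scaling by library size only. Gucy2f lies on the X chromosome and was lowest in the P21 library with Xist, and without that library its log2 fold change was 1.31 (edgeR FDR 0.00525), but it was not called without P21 replicate 1 (edgeR FDR 0.062) or 18-month replicate 1 (edgeR FDR 0.0516). Gnat1 and Cngb1 were called with any 1 library left out, whereas Gucy2e, Guca1a, Pde6a, Slc24a1 and Grk1 were not called without P21 replicate 1. With an offset for gene length in each library the log2 fold change of Gucy2f was 1.44. In Pias3+/+ retina 3 of the 20 rose and Pdc fell, with a median of 0.23.

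**Figure D2:**
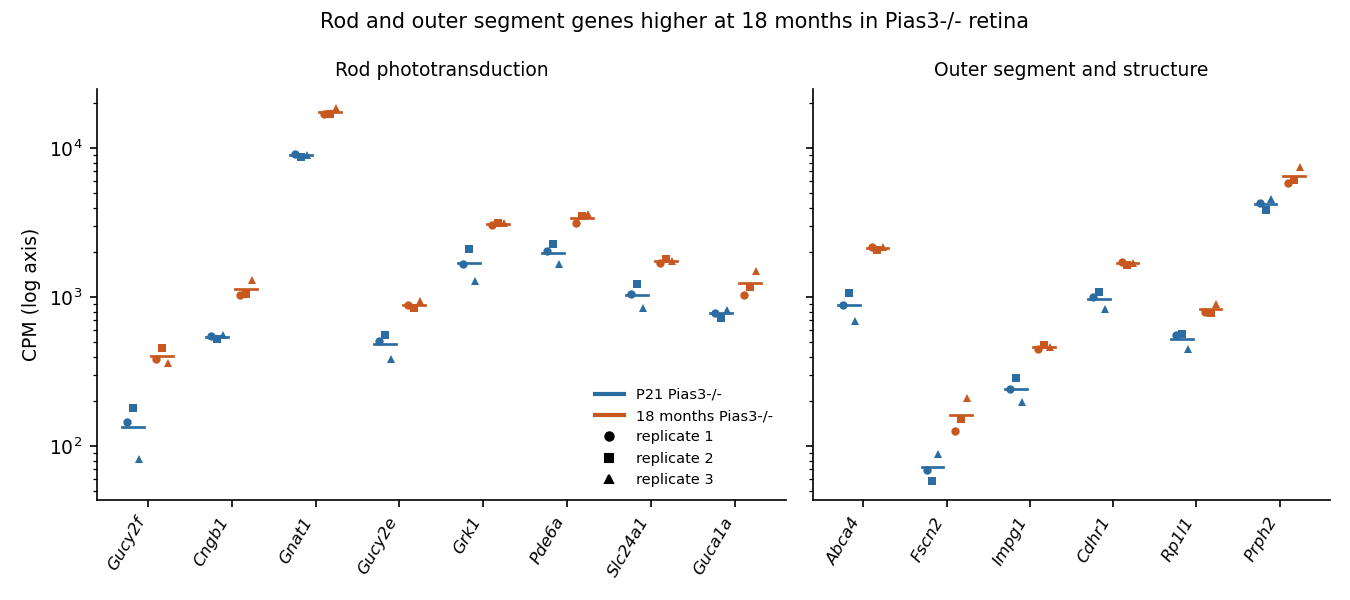
CPM (log axis) of 8 rod phototransduction genes (left) and the 6 outer segment genes (right) called higher at 18 months, with 1 symbol per library, blue for P21 and orange for 18 months, and a line at each mean. In each gene the 3 orange symbols lie above the 3 blue ones, and P21 replicate 3 (triangle) is lowest at P21 in genes such as Gucy2f, Grk1 and Abca4.

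Genes of outer segment structure behaved likewise, with 6 of 18 higher and none lower (median log2 fold change 0.48). Abca4, the transporter that clears retinal products from outer segment discs, was at 890, 1061 and 696 CPM at P21 and at 2173, 2081 and 2176 CPM at 18 months (1.28 ± 0.15, edgeR FDR 0.0039). Fscn2, an actin bundling protein of photoreceptors, rose by 1.17, and Impg1, a matrix component around photoreceptors, by 0.93. Cdhr1 (0.80), Rp1l1 (0.66) and Prph2, which encodes the disc rim protein peripherin 2 (0.62), made up the 6. The count was 5 without 18-month replicate 2 and 3 without P21 replicate 1, and with scaling by library size only 4 rose and 1 fell. In Pias3+/+ retina only Fscn2 of the 18 was called.

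Of 13 photoreceptor transcription factors, 1 rose and 1 fell. Nr2e3, a nuclear receptor of rods, was at 359, 428 and 411 CPM at P21 and at 751, 865 and 1065 CPM at 18 months (1.16 ± 0.15, edgeR FDR 0.00449). Prdm1, which acts in photoreceptor precursors, was at 24.6, 23.8 and 18.6 CPM and at 10.5, 9.89 and 8.78 CPM (-1.20 ± 0.15, edgeR FDR 0.00424). Nrl and Crx, which specify rods and photoreceptors, had log2 fold changes of 0.33 (edgeR FDR 0.061) and 0.20 (edgeR FDR 0.199). Without P21 replicate 2, 2 factors were higher, and without P21 replicate 3, 2 were lower. At the photoreceptor ribbon synapse 3 of 19 genes rose, the calcium channel gene Cacna1f (0.85), its regulator Cabp4 (0.65) and Elfn1 (0.68). Without 18-month replicate 2, Cacna1f alone of the 3 was called, and the count was likewise 1 without P21 replicate 1, without 18-month replicate 1 or with scaling by library size only.

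Cone genes did not move together. Of 12 cone phototransduction genes, 2 rose and 1 fell, with a median log2 fold change of 0.00. Opn1mw, the M-opsin gene, was at 296, 326 and 285 CPM at P21 and at 145, 134 and 163 CPM at 18 months (-1.04 ± 0.11, edgeR FDR 0.0024). Opn1sw, the S-opsin gene, was at 462, 441 and 434 CPM and at 486, 547 and 572 CPM (0.26 ± 0.09, edgeR FDR 0.0986). Thus M-opsin transcript was lower in every 18-month library, and no 18-month library was below a P21 library for S-opsin. Opn1mw is X-linked and its log2 fold change was -1.08 without the P21 library with Xist, and in Pias3+/+ retina it was -0.997. Cngb3, a subunit of the cone channel, was at 13.3, 11.8 and 9.14 CPM and at 25.8, 23.6 and 19.3 CPM (1.01 ± 0.18, edgeR FDR 0.0131). In Pias3+/+ retina its log2 fold change was 0.08, and the interaction of age and genotype did not pass (edgeR FDR 0.164). Kcnv2, a potassium channel subunit of photoreceptors, rose by 0.61 and was not called without 18-month replicate 2. Without 18-month replicate 1 neither was called, and 1 cone gene rose when any other library except P21 replicate 2 was left out.

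**Figure D3:**
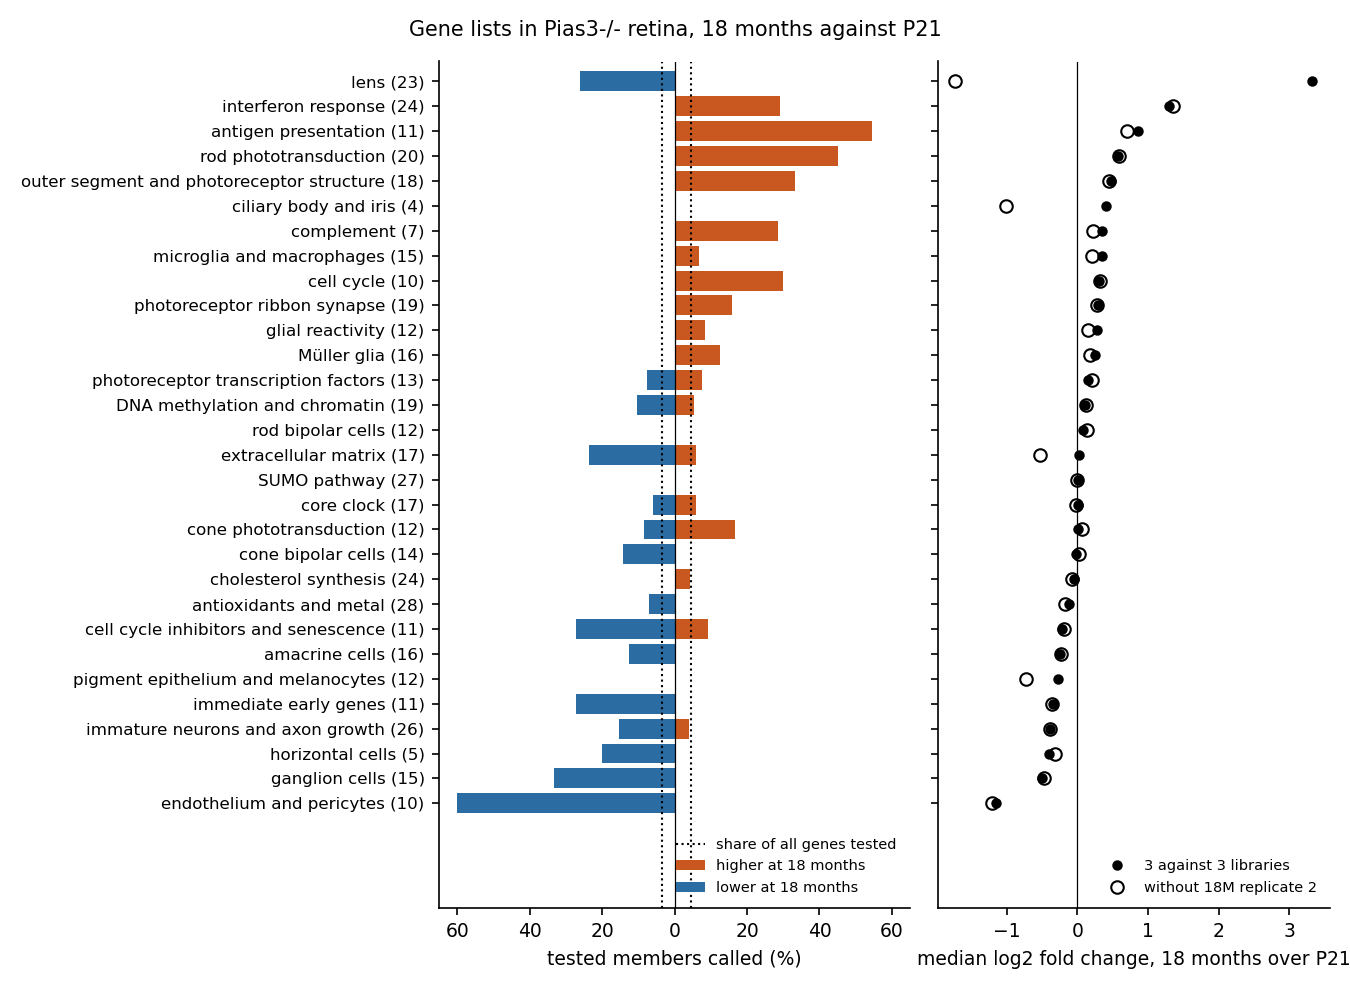
Left, share of tested members of each gene list (number tested in parentheses) called higher (orange) or lower (blue) at 18 months in Pias3-/- retina, with dotted lines at 4.59% and 3.51%, the shares of all genes tested. Right, median log2 fold change of each list with all 6 libraries (filled) and without 18-month replicate 2 (open), where the circles of lens and ciliary body genes lie far apart.

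Interferon response and antigen presentation genes were higher at 18 months. Of 24 interferon genes tested 7 rose and none fell, with a median log2 fold change of 1.29, and of 11 antigen presentation genes 6 rose and none fell, with a median of 0.86. Gbp2, a guanylate binding protein, was at 1.11, 1.10 and 1.54 CPM at P21 and at 10.3, 6.24 and 4.61 CPM at 18 months (2.47 ± 0.35, edgeR FDR 0.00664). Ifit1, which binds viral RNA, was at 1.16, 1.55 and 0.967 CPM and at 26.5, 7.59 and 2.78 CPM (3.33 ± 0.82, edgeR FDR 0.0383). Ifit1 was called again only without 18-month replicate 3, the edgeR FDR being 0.0668 to 0.141 without any other library, and its log2 fold change was 2.08 without 18-month replicate 1. The 18-month libraries thus differed widely among themselves, and replicate 1 was the highest for Gbp2 and Ifit1. The list summed to 528 CPM in that library, to 334 and 288 CPM in the others and to 184 to 207 CPM at P21. Oasl2 (1.53), Ifi27 (1.505), Irf7, a factor that amplifies the interferon response (0.97), and Xaf1 (0.83) also rose. With 1 library left out the log2 fold change of Oasl2 was 0.96 to 1.76. Members that were not called had log2 fold changes between -0.18 and 2.83, with Usp18 the highest (edgeR FDR 0.09). Before adjustment 22 of the 24 had a p at or under 0.05, against 30.4% of all genes tested, and DESeq2 called 19, against 9.44% of all genes tested. Some of the 24 passed the expression filter only through 18-month replicate 1. Without that library 18 were tested, and their median log2 fold change was 0.80. The shares of the 24 therefore partly reflect how members were admitted.

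Among antigen presentation genes, B2m, the shared light chain of class I molecules, was at 16.2, 19.1 and 20.004 CPM at P21 and at 43.9, 38.7 and 33.6 CPM at 18 months (1.07 ± 0.14, edgeR FDR 0.00457). H2-K1, a class I heavy chain, was at 14.0, 12.4 and 18.6 CPM and at 38.9, 35.3 and 47.5 CPM (1.43 ± 0.18, edgeR FDR 0.00464). Class I genes resemble each other closely, so reads may be split among H2-K1, H2-D1, H2-Q4 and H2-T23, of which H2-K1 alone was called. Psmb8, an immunoproteasome subunit, rose by 1.49, and Tap2 and Tapbp, which load peptides, by 1.28 and 0.86. Cd74, the chain that guides class II molecules, was at 0.264 to 0.452 CPM and at 0.859, 4.64 and 1.44 CPM (2.82 ± 0.72, edgeR FDR 0.0417), highest in the library with lens RNA, and was under the expression filter without it.

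Counts of both lists depended on single libraries. The interferon count was 4 without 18-month replicate 2, and 3 without 18-month replicate 1 or P21 replicate 1. The antigen presentation count was 5 without 18-month replicate 2, 3 without 18-month replicate 3 and 2 without P21 replicate 1. Of the genes named here, Gbp2, Ifi27, B2m and H2-K1 were called with any 1 library left out, whereas Oasl2 was called in none of the 6 such fits. Irf7, Xaf1, Psmb8, Tap2, Tapbp and Cd74 were not called without P21 replicate 1. Of these, Tapbp was called in every other such fit. Irf7 and Tap2 were not called in 3 of the 6 fits, Psmb8 and Xaf1 in 4, and Cd74 was not called or not tested in 5. In Pias3+/+ retina 11 of the 17 interferon genes and 6 of the 10 antigen presentation genes tested rose.

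**Figure D4:**
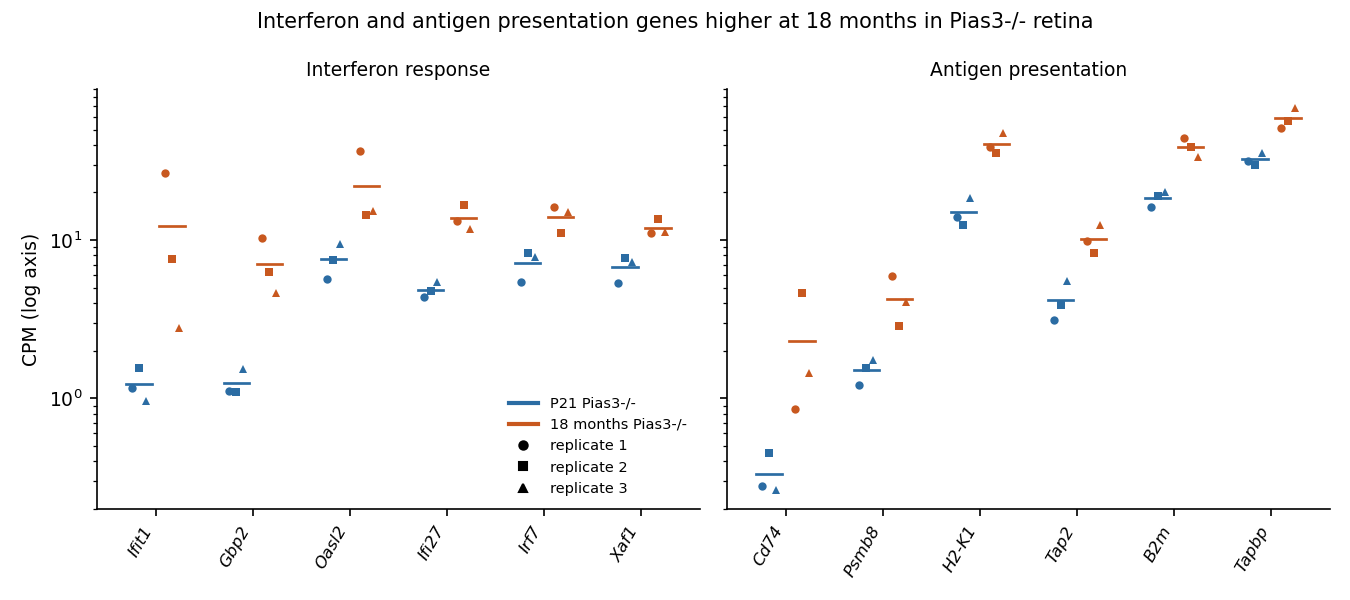
CPM (log axis) of 6 interferon response genes (left) and antigen presentation genes (right) called higher at 18 months in Pias3-/- retina, with 1 symbol per library, blue for P21 and orange for 18 months, and a line at each mean. 18-month replicate 1 (circle) is highest for Ifit1, Gbp2, Oasl2 and Irf7, and replicate 2 (square) for Cd74.

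In the complement list 2 of 7 genes rose: C4b, which was at 4.10, 5.49 and 6.86 CPM at P21 and at 19.9, 18.6 and 11.3 CPM at 18 months (1.59 ± 0.27, edgeR FDR 0.0125), and Cd59a, an inhibitor of the membrane attack complex (1.34 ± 0.09, edgeR FDR 0.000651). C4b was not called without P21 replicate 1 or 18-month replicate 1, where the complement count was 1, and the count was 3 without 18-month replicate 3, and 1 complement gene was called lower without P21 replicate 2 or 3. Of 15 microglia and macrophage genes tested Lyz2 alone rose, where 4.59% of all genes tested did, and none was called without P21 replicate 1 or 2. Without P21 replicate 3 the edgeR FDR of Lyz2 was 0.0662 and 2 other genes of the list were called higher. The list summed to between 115 and 141 CPM at P21 and between 135 and 184 CPM at 18 months. A single lymphocyte gene was tested and was not called. Of 12 glial reactivity genes Edn2 alone rose, whereas 2 genes were higher without 18-month replicate 3, 2 were called by DESeq2, and 1 was lower with scaling by library size only. Gfap, the filament protein of reactive glia, was at 22.7, 26.2 and 31.7 CPM and at 21.1, 16.2 and 17.1 CPM (-0.57 ± 0.16, edgeR FDR 0.0586). Of 16 Müller glia genes, Hes1 and the transporter Abca8a rose by 0.73 and 0.64, and neither was called without P21 replicate 1 or 18-month replicate 1 or 2, whereas 3 were called without 18-month replicate 3. Glul, the glutamine synthetase of Müller glia, was at 3029 to 3260 CPM at P21 and at 3228 to 3600 CPM at 18 months (0.13 ± 0.08, edgeR FDR 0.339).

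Ganglion cell genes were lower at 18 months, with 5 of 15 lower, none higher and a negative log2 fold change in all 15 (median -0.50). Rbpms, an RNA binding protein that marks ganglion cells, was at 64.6, 66.9 and 70.3 CPM at P21 and at 38.6, 43.3 and 40.7 CPM at 18 months (-0.72 ± 0.08, edgeR FDR 0.00382). Stmn2, a microtubule regulator of axons, was at 163, 160 and 165 CPM and at 92.9, 96.1 and 102 CPM (-0.74 ± 0.08, edgeR FDR 0.00249). Isl1, a transcription factor also present in bipolar cells, and the neurofilament genes Nefm and Nefh fell by 0.67, 0.63 and 0.60. The list summed to between 1858 and 2122 CPM at P21 and between 1244 and 1513 CPM at 18 months, and the count was 4 without 18-month replicate 2, 3 without 18-month replicate 1, 2 without P21 replicate 1 and 8 with scaling by library size only. In Pias3+/+ retina 2 of the 15 fell, with a median of -0.43.

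Of 16 amacrine genes 2 fell, the choline transporter gene Slc5a7 (-1.03) and Npy (-0.84), and 5 did so with scaling by library size only. Without P21 replicate 1 or 18-month replicate 1 or 2, 1 amacrine gene was called. Of 5 horizontal cell genes Calb1 fell by 0.81, and of 14 cone bipolar genes Vsx1 and Isl1 fell, of which 1 was called without P21 replicate 1. None of 12 rod bipolar genes was called by edgeR's quasi-likelihood test or by DESeq2, with a median log2 fold change of 0.08. Before adjustment 3 of them had a p at or under 0.05, a share below the 30.4% of all genes tested.

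Several vessel genes were lower at 18 months, with 6 of 10 endothelium and pericyte genes lower, none higher and a median log2 fold change of -1.15. Slco1a4, an anion transporter of vessels behind the blood-brain barrier, was at 22.1, 21.1 and 21.9 CPM at P21 and at 6.57, 6.49 and 7.15 CPM at 18 months (-1.69 ± 0.11, edgeR FDR 0.000651). Rgs5, a pericyte marker, was at 30.6, 34.3 and 29.2 CPM and at 13.4, 11.3 and 8.59 CPM (-1.50 ± 0.17, edgeR FDR 0.00351). Cldn5, a tight junction protein of endothelium, was at 11.6, 5.88 and 18.5 CPM and at 3.74, 3.59 and 3.50 CPM (-1.74 ± 0.39, edgeR FDR 0.0282). The fold changes were similar in these 3 genes, and the P21 libraries were more spread for Cldn5 than for the others. Pecam1, Eng and Emcn fell by 1.26, 1.33 and 1.04. Slco1a4, Rgs5 and Pecam1 were called with any 1 library left out, Cldn5 and Emcn were not called without P21 replicate 1 or any 1 of the 18-month libraries, the count was 3 without 18-month replicate 1, and 5 of the 10 fell in Pias3+/+ retina. The 1 erythrocyte gene tested, Alas2, fell by 3.04, was highest in P21 replicate 3 and was under the expression filter without it. Not all vessel genes were lower: Kdr and Flt1, receptors of vascular growth factor, had log2 fold changes of 0.48 and 0.13, and the 19 listed genes summed to 360 to 366 CPM at P21 and to 264 to 364 CPM at 18 months.

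Of 26 genes of immature neurons and axon growth 4 fell and 1 rose (median -0.38). Marcksl1, a membrane protein of growing neurites, was at 77.0, 70.1 and 98.0 CPM at P21 and at 17.8, 16.5 and 21.2 CPM at 18 months (-2.14 ± 0.16, edgeR FDR 0.000929). The transcription factor Sox4 fell by 1.43, Nrep by 0.95 and Basp1 by 0.59, and the ephrin receptor Ephb1 rose by 0.79. Basp1 was not called without P21 replicate 1 or 2 or 18-month replicate 1. Without 18-month replicate 2, 6 fell, and Ephb1 was not called without P21 replicate 1 or 18-month replicate 1. Of 17 extracellular matrix genes Col4a3 rose, and Sparc, Col9a1, Ncan and Col6a2 fell. Sparc, a matrix protein that binds collagen, was at 584, 572 and 640 CPM and at 175, 316 and 160 CPM (-1.46 ± 0.25, edgeR FDR 0.0132), with the highest 18-month value in the library with lens RNA and a log2 fold change of -1.84 without it. Sparc was not called without P21 replicate 1 or 18-month replicate 1, where 2 matrix genes fell, and without 18-month replicate 2, 5 did. The median log2 fold change of the matrix list was 0.02 and ranged from -0.53 to 0.18 with 1 library left out.

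Of 10 cell cycle genes 3 rose: Bub1b, a checkpoint kinase (1.80), and the cyclins Ccnd1 (1.72) and Ccna2 (1.47). Ccnd1 was at 14.2, 11.96 and 12.7 CPM at P21 and at 33.6, 61.5 and 32.8 CPM at 18 months. Bub1b was not called without P21 replicate 1 or 18-month replicate 1 or 2, and with scaling by library size only 2 genes of the list also fell, whereas in Pias3+/+ retina 5 of the 10 rose. Among 11 genes of cell cycle inhibitors and senescence, Cdkn2c, an inhibitor of Cdk4 and Cdk6, rose by 1.13, and Igfbp3, Cdkn1a and Glb1 fell. Glb1 was not called without 18-month replicate 2 (edgeR FDR 0.0633), where another gene of the list was, and 2 genes were lower without P21 replicate 1 or 18-month replicate 1. Cdkn1a was at 16.97, 23.3 and 21.9 CPM and at 5.28, 8.14 and 5.66 CPM (-1.70 ± 0.21, edgeR FDR 0.00424).

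Of 11 immediate early genes 3 fell, Egr1, Fos (-1.64) and Nr4a1 (-0.98), and Nr4a1 was not called without P21 replicate 1 or any 1 of the 18-month libraries. Of 17 core clock genes 2 were called, against 8.10% of all genes tested. Nr1d1, a repressor of the clock loop, rose by 0.63 and Cry1, also a repressor, fell by 0.80 (edgeR FDR 0.0104). In Pias3+/+ retina the log2 fold change of Cry1 was 0.01, and the interaction of age and genotype did not pass (edgeR FDR 0.0523). Nr1d1 was not called without P21 replicate 1 or 2 or without 18-month replicate 1 or 3, nor with scaling by library size only, and Cry1 was not called without P21 replicate 1. Of 28 antioxidant and metal genes 2 were called, a share close to that 8.10%: Mt2 and Txn1 fell by 1.03 and 0.69. The count was 0 without P21 replicate 1 or 18-month replicate 1 or 2, 1 without P21 replicate 3 or 18-month replicate 3, and 3 without P21 replicate 2. It was 4 with scaling by library size only and also by DESeq2, which called 9.44% of all genes tested. In the DNA methylation and chromatin list Hmgb2 rose by 1.33, and Dnmt3a, a DNA methyltransferase, and Tet1, which oxidizes methylcytosine, fell by 0.77 and 1.14. Of the latter 2, none was called without P21 replicate 1 and 1 when P21 replicate 2 or any 18-month library was left out.

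None of 27 SUMO pathway genes was called by edgeR's quasi-likelihood test or by DESeq2, with a median log2 fold change of 0.01. Before adjustment 9 of them had a p at or under 0.05, a share close to the 30.4% of all genes tested. Pias3 was at 73.2, 76.8 and 87.8 CPM at P21 and at 58.1, 54.2 and 61.8 CPM at 18 months (-0.45 ± 0.10, edgeR FDR 0.0291), a difference under 1.5-fold whose FDR was 0.0983 without 18-month replicate 2. Its Pias3+/+ log2 fold change was -0.32. Of its paralogs, Pias1 had a log2 fold change of 0.36 (edgeR FDR 0.146), Pias2 of -0.06 (edgeR FDR 0.832) and Pias4 of 0.23 (edgeR FDR 0.381).

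Lens genes fell into separate sets. Of 23 tested, the 6 gamma crystallins Cryga to Crygf fell, and 17 had a positive log2 fold change, in all of which 18-month replicate 2 was the highest 18-month library. Cryaa, the alpha A crystallin, was at 36.0, 16.6 and 4.04 CPM at P21 and at 6.57, 4895 and 33.1 CPM at 18 months, and its log2 fold change of 6.45 (edgeR FDR 0.121) was 0.08 without that library. Crygb was at 12.8, 17.3 and 5.01 CPM and at 0, 0.499 and 0 CPM. Cryge was at 6.04, 11.6 and 2.37 CPM and had no count at 18 months, so it was at least 116-fold lower against a floor of 3 counts over the group. The gamma crystallins were therefore near 0 also in the library in which other lens genes were high. They fell in Pias3+/+ retina as well, but so did lens genes in general there, with 15 of 16 tested lower and a median log2 fold change of -4.36. They are near-identical neighbours on chromosome 1, so reads may be split among them. The count of lower lens genes was 5 without 18-month replicate 2, 2 without P21 replicate 1 and 4 without 18-month replicate 1.

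Of 12 pigment epithelium and melanocyte genes none was called with all 6 libraries by edgeR's quasi-likelihood test or DESeq2, and for 0 of them the unadjusted p was at or under 0.05. Rpe65, the visual cycle isomerase, was at 4.71, 56.8 and 10.2 CPM and at 4.05, 3.94 and 12.05 CPM (-1.82, edgeR FDR 0.233), so the spread between P21 libraries exceeded the difference. Without 18-month replicate 2 the melanocyte genes Dct and Pmel fell, with a log2 fold change of Dct of -3.37 against 0.37 with all 6 libraries, and in Pias3+/+ retina 9 of 11 fell.

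The age difference differed between genotypes in 26 of 12448 genes (0.209%) by the interaction of age and genotype in 1 fit of all 12 libraries, with the edgeR FDR at or under 0.05. At an unadjusted p of at most 0.05 the interaction held for 1107 genes (8.89%). Of the 26, 23 had a higher log2 fold change in Pias3-/- than in Pias3+/+ retina, 19 were called in Pias3-/- and 6 in Pias3+/+ retina, and 12 had opposite signs. The mean of P21 Pias3-/- libraries was the lowest of the 4 groups in 21 of the 26 and the highest in 3, against 31.7% and 32.5% of all genes tested. The gap between the genotypes was smaller at 18 months in 24 of the 26, against 57.4% of the 12415 genes with a mean above 0 in every group. These genes were chosen for unequal gaps at the 2 ages, so both counts are a description and were not tested. Without 18-month Pias3-/- replicate 2, 17 genes had an interaction, 16 of them among the 26. The count was 7 without P21 Pias3-/- replicate 1, 10 without 18-month Pias3-/- replicate 1 and 6 to 12 without any 1 of the Pias3+/+ libraries. Xist had 15790 counts or more in 2 of 3 P21 and 3 of 3 18-month Pias3+/+ libraries and in 1 of 3 and 0 of 3 Pias3-/- libraries, and 18 or fewer in the others, so at 18 months genotype and sex cannot be told apart, and 25 genes had an interaction with genes of the sex chromosomes left out.

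The 5 genes with the lowest p-values are given on the scale of the 12 libraries. The uncharacterized 2610507I01Rik was at 3.67, 4.09 and 3.36 CPM in P21 Pias3-/- and at 18.0, 16.0 and 13.7 CPM in 18-month Pias3-/- retina, against 19.6, 22.5 and 18.0 CPM and 24.2, 24.2 and 22.7 CPM in Pias3+/+ retina, an interaction of 1.86 ± 0.18 (log2, SE, edgeR FDR 0.00296). Ano2, a calcium-activated chloride channel of photoreceptor terminals, was at 86.0, 95.6 and 82.8 CPM and at 134, 118 and 125 CPM in Pias3-/-, against 153, 143 and 147 CPM and 108, 103 and 99.7 CPM in Pias3+/+ retina (1.02 ± 0.11, edgeR FDR 0.00352). The 18-month libraries thus lay above those of P21 in Pias3-/- and below them in Pias3+/+ retina. Dscaml1, a cell adhesion molecule, was at 73.7 to 77.7 CPM at P21 and 150 to 182 CPM at 18 months in Pias3-/- retina, and at 157 to 192 CPM in the 6 Pias3+/+ libraries (1.12 ± 0.14, edgeR FDR 0.00803). Pcdhb9, a clustered protocadherin, was at 5.71 to 7.61 and 12.9 to 14.5 CPM in Pias3-/- and at 24.3 to 26.9 and 20.5 to 21.2 CPM in Pias3+/+ retina (1.38 ± 0.15, edgeR FDR 0.00417). Its 18-month Pias3-/- levels were below those of both ages of Pias3+/+ retina.

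From the rod list Gnat1 alone was among the 26, and from the photoreceptor transcription factors Esrrb, a nuclear receptor of rods. Esrrb was at 462, 439 and 389 CPM in P21 and at 495, 430 and 494 CPM in 18-month Pias3-/- retina, which overlapped, and at 532 to 576 CPM and 357 to 370 CPM in Pias3+/+ retina, which did not (interaction 0.74 ± 0.12, edgeR FDR 0.0282). The Esrrb interaction passed without P21 Pias3-/- replicate 2 or 3 or 18-month Pias3-/- replicate 2, and not without any 1 of the other 9 libraries (edgeR FDR up to 0.125). Gnat1 was at 9067, 8597 and 8923 CPM in P21 Pias3-/- retina and at 14192, 13184 and 13610 CPM in P21 Pias3+/+ retina. At 18 months it was at 16646, 16580 and 18516 CPM and at 16944, 15792 and 16243 CPM, so the genotypes overlapped at 18 months and not at P21 (interaction 0.70 ± 0.09, edgeR FDR 0.00803). Of the rod list 19 of 20 genes, of the outer segment list 16 of 18 and of the ribbon synapse list 17 of 19 had a higher log2 fold change in Pias3-/- than in Pias3+/+ retina, against 51.4% of the 11942 genes tested in both. In 12 of the 20 rod genes the unadjusted p of the interaction was at most 0.05, against 8.89% of all genes. None of the 17 interferon and 10 antigen presentation genes tested in both had such a p, although 13 and 5 of them had the higher log2 fold change in Pias3-/- retina. Such a p also occurred in 10 of 16 lens genes, where 1 library carried lens RNA, and in 7 of 9 sex chromosome markers. Members of a list share the same 12 libraries, so these counts are a description and were not tested.

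**Figure D5:**
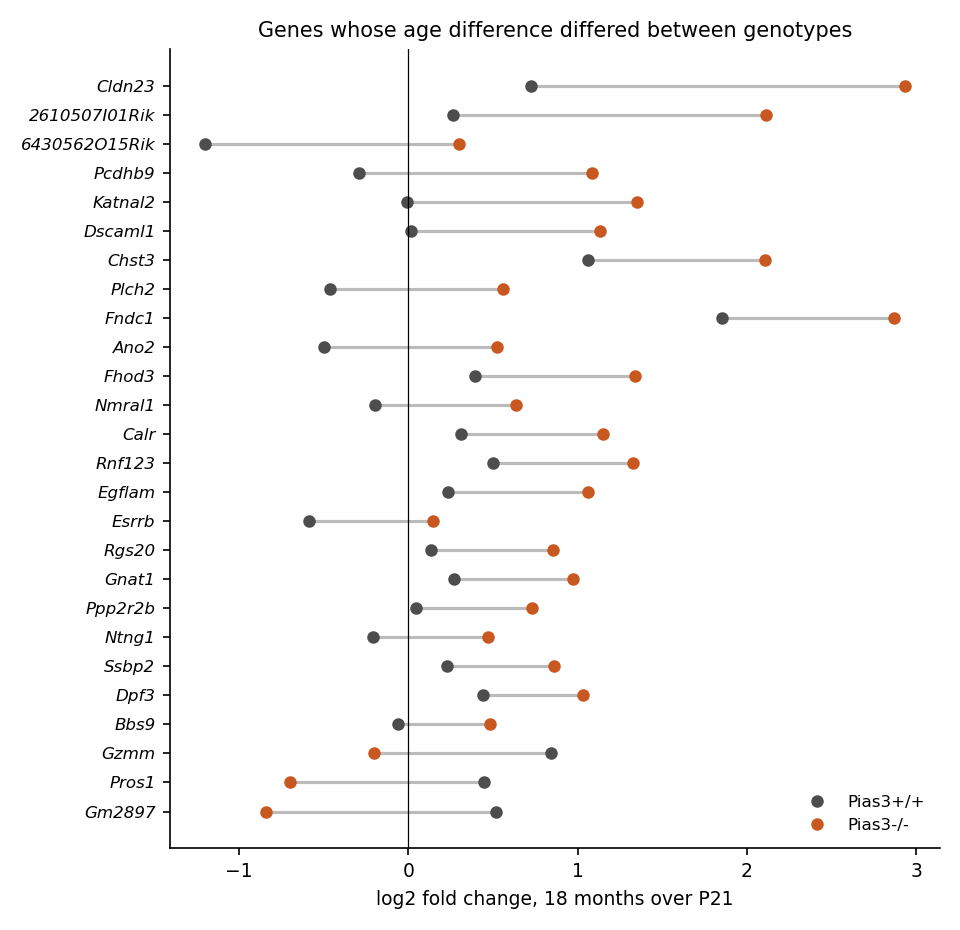
Log2 fold change from P21 to 18 months in Pias3-/- (orange) and Pias3+/+ retina (grey) for the 26 genes whose age difference differed between genotypes, ordered by the size of that difference. In 23 genes the orange point lies to the right, and in 12 the points lie on opposite sides of 0.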

How the data were processed

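RNA of 2 mouse retinas per sample was sequenced as strand-specific paired-end libraries. Per the labels and the submitters' processing notes, the authors aligned reads to mm10 with TopHat2 2.1.1 and counted them per gene with featureCounts, and the deposited values are raw counts of 24062 genes. Tables of the authors' own comparisons hold their fold changes and p-values and were not used. FPKM was computed here from the counts and the listed gene lengths. Genes that reached an FPKM of 2 in 1 or more of the 6 libraries were tested with edgeR 4.0.16 in R 4.3.3 (TMM, quasi-likelihood test, prior count 2) and called where the adjusted p (FDR) was 0.05 or less and the fold change 1.5 or more, as the study's methods set them, and the interaction by the FDR alone. Figures were drawn with matplotlib 3.10.9. Depth was 15196453 to 21967072 counts, and 95% intervals and floors of 3 counts cover counting error only. The study's methods call the samples of a group independent biological replicates, and p-values measure the spread between them.

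The comparison and the gene lists were chosen with earlier results of these data known. Named were, per direction, the 10 autosomal genes with the largest change (at least 5 CPM in the higher group, no overlap, also called without 18-month Pias3-/- replicate 2), the 5 with the lowest p, up to 3 called members of each list per direction, a set of 13 fixed genes that includes the Pias family, and the 5 interaction genes with the lowest p. Other named genes, among them further called members of the lists, Usp18, Kdr, Flt1, Esrrb and Pdc, were chosen after their values were seen. In simulated counts for the 12287 genes, changes were made only in genes above a set mean count, so genes of low count were not covered. A detection meant passing the FDR in the right direction, without the fold change limit. By that measure the comparison of ages detected 19.4% of the changes made at 1.5-fold, 74.6% at 2-fold and 100% at 4-fold. False calls made up 4.44% of all calls. Alternatives covered scaling, filters, tests (DESeq2 1.42.0 among them), gene length, covariates, a replicate block and each library left out. Leaving out both 18-month replicate 2 and P21 replicate 3, and leaving out lens genes, were chosen after seeing the data. Some genes are not reported here.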

Additional observations from a re-analysis of the deposited data

Results flagged for a closer look

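Among genes named by the stated rules, 6 had an age difference that differed between genotypes, at an edgeR FDR of at most 0.05. The test was the interaction in the fit of all 12 libraries. Esrrb, chosen after its values were seen, also passed and is described above. The log2 difference between the age effects, Pias3-/- minus Pias3+/+, was 1.86 for 2610507I01Rik, 1.38 for Pcdhb9, 1.12 for Dscaml1, 1.02 for Ano2, 1.02 for Fndc1 and 0.70 for Gnat1. Without 18-month Pias3+/+ replicate 2 the edgeR FDR of the Fndc1 interaction was 0.0619, and the other 5 passed with any 1 of the 12 libraries left out. Fndc1 rose in both genotypes, by 2.87 in Pias3-/- and by 1.85 in Pias3+/+ retina. It was at 11.2, 10.9 and 10.5 CPM in P21 Pias3-/- and 16.6 to 19.2 CPM in P21 Pias3+/+ retina, and at 84.0, 67.9 and 84.1 CPM against 63.1, 62.5 and 62.7 CPM at 18 months. Its levels were thus lower in Pias3-/- retina at P21 and higher at 18 months. All 18-month Pias3+/+ libraries and no 18-month Pias3-/- library had Xist, and the part of sex in these differences was not tested beyond leaving out the sex chromosomes.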

How the results depend on the processing

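Of 995 genes called in Pias3-/- retina, the count became 181 when the test was against a 1.5-fold change (glmTreat), 443 at an FDR of at most 0.01 and 1775 without a fold change limit. Leaving out 1 library gave 421 (without P21 replicate 1) to 1000 (without P21 replicate 2), and 498 without 18-month replicate 1. All other settings gave 766 to 1380. Between Pias3-/- libraries of the same replicate number, the correlations of deviations were -0.018, 0.217 and 0.487. Between those of unlike number they were -0.483 to 0.199, and whether replicate numbers pair the libraries was not tested. With a replicate block 1264 genes were called in Pias3-/- and 995 in Pias3+/+ retina. For Pias3+/+ retina the count of 967 became 1734 with no filter on low values and 866 to 1073 with 1 library left out. The interaction count of 26 became 48 with the replicate block, 99 by the likelihood ratio test and 154 by DESeq2, and 6 to 33 with 1 library left out. The causes of these shifts were not tested.

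Among the named genes, Pias2 ranged from -0.18 to 0.054 on the log2 scale with 1 library left out, Xist was 0.025 with Xist itself as covariate, and Cryaa was -0.40 without both 18-month replicate 2 and P21 replicate 3. Dct, at 0.37 with all libraries, was -1.07 with a replicate block and -1.004 with the gene length offset added, -0.12 with a pigment epithelium covariate, -3.37 to 0.92 with 1 library left out (-3.37 without 18-month replicate 2) and -3.46 without P21 replicate 3 as well. No other gene named in the text changed direction in these settings. Of 108 named genes that were called, 55 were called with any 1 library left out, and 47 were not without P21 replicate 1 and 37 not without 18-month replicate 1. Genes of 1.5-fold change were detected in few simulated cases even by the FDR alone, so a gene that was not called may differ by that much.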
